A study of Caenorhabditis elegans with 2 samples.

Results

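Of the 30000 regions in a pooled list of ChIP-seq peaks from Caenorhabditis elegans larvae, 291 had a high signal value and a summit inside a coding exon far from any gene start. They were chosen by 4 conditions: a signal value among the highest 16.6% of the pooled list, a place on chromosomes I to IV, a summit base inside an annotated coding sequence, and a distance of more than 500 bp from the annotated 5′ end of any transcript. They are called coding-exon peaks or members here, and the lowest of them had a signal of 14.51. Peaks past the same signal threshold are called strong, and the members made up 291 of the 3323 strong peaks on these chromosomes. The study measured, by chromatin immunoprecipitation and sequencing, where the protein ZK546.5 sits in the genome of whole L4 larvae, the last larval stage. The labels describe 1 group of 2 biological replicates, which were mixed-sex L4 larvae of strain OP231 (unc-119(ed3) III; wgIs231), a stable transgenic line in which ZK546.5 carries GFP-FLAG at its C-terminus. The chromatin was sheared by sonication. The values therefore describe a tagged transgene product in 1 strain, averaged over all tissues of the animal, and there is no second strain, stage or treatment to set them against. The signal value, which is the authors' own, chose the peaks, so every value of it is given below as a description and not as a finding.

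Most proteins that act on transcription are detected by ChIP-seq at promoters and enhancers, outside the protein-coding part of genes. A coding exon is the stretch of a gene that is translated, and its base composition is constrained by the code it carries. In C. elegans many messenger RNAs are trans-spliced, so that a short leader replaces their original 5′ end, and transcription can begin upstream of the annotated one. Reproducibility between replicates is commonly judged by the irreproducible discovery rate (IDR), which compares the ranks of peaks in both lists.

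The sequences under the summits of 6 coding-exon peaks are shown, on the strand of the host gene. They are the 6 of highest signal on chromosomes II, III and IV, and show what kind of DNA lies under such peaks. Each is the window that reaches 100 bp to either side of the summit, shortened where it would have run past the coding sequence into the end of the gene. Capitals mark bases of the host's annotated coding sequence, which leaves out the stop codon, and lower case marks intron. The stretches in build ce11 (WBcel235) are K08D12.4 at chrIV:1708411-1708531 on the plus strand, dos-3 at chrIII:835870-836070 on the minus strand, T28C6.5 at chrIV:8822658-8822797 on the plus strand, F25B5.5 at chrIII:5943924-5944124 on the minus strand, best-18 at chrIII:10214539-10214739 on the plus strand and nhr-21 at chrII:7348282-7348482 on the plus strand. In dos-3 and T28C6.5 all printed bases are coding, and in the other 4 the summit exon is joined by intron bases.
K08D12.4: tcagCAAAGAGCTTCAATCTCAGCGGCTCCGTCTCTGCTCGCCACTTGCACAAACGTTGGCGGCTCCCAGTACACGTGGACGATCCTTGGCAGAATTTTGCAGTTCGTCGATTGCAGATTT
dos-3: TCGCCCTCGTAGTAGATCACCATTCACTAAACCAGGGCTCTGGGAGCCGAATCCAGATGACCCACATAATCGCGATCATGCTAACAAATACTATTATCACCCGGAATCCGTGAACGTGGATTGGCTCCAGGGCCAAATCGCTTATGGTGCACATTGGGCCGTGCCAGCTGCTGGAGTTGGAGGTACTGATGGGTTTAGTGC
T28C6.5: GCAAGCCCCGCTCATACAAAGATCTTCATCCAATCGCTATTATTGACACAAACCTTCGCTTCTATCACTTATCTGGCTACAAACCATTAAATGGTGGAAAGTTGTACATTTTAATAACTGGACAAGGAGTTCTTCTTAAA
F25B5.5: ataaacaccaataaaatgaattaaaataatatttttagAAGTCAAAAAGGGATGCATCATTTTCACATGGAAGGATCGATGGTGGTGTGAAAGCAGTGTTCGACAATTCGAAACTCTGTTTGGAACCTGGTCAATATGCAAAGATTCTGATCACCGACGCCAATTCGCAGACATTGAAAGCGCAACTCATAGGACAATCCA
best-18: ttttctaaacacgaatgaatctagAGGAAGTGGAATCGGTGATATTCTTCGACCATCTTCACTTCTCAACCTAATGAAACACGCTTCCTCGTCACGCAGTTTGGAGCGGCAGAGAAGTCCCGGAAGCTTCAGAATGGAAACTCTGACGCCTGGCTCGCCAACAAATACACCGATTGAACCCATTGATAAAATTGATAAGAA
nhr-21: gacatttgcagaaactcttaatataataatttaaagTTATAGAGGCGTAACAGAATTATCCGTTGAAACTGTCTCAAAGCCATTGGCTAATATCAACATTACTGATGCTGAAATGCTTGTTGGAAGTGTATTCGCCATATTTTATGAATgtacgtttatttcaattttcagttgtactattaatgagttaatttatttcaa

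The GC content of the full windows at these summits differed widely, from 29.4% at nhr-21 to 52.2% at dos-3. The strongest coding-exon peak lay in the third and last coding exon of K08D12.4, at chrIV:1708339-1708682, with a pooled signal of 43.6. Its summit was 1215 bp from the nearest annotated 5′ end, which is that of K08D12.4 itself, and 180 bp from the 3′ end of the gene. The next lay in the last of 11 coding exons of dos-3, at chrIII:835798-836141, with a pooled signal of 42.8 and its summit 219 bp from the 3′ end. The dos-3 gene encodes a secreted protein of the DOS-motif family of Notch co-ligands. In both cases the peak was near the end of the gene, and this also held for T28C6.5, with a pooled signal of 30.8 in the last of 6 coding exons. The next in order, in C06A5.2 on chromosome I, is not printed above and had a pooled signal of 27.2 in the third of 4 coding exons. F25B5.5 had a pooled signal of 25.9 in the last of 8 coding exons. The peak in best-18, a gene of the bestrophin anion channel family, had a pooled signal of 25.8 in the last of 7 coding exons. That in nhr-21, which encodes a nuclear hormone receptor, had a pooled signal of 25.2 in the eighth of 10 coding exons.

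The pooled signal of the coding-exon peaks ran from 14.51 to 43.6, with a median of 16.5 and quartiles of 15.4 and 18.4. Being strong, as 16.6% of all pooled peaks are, was part of the choice, so nothing is read from the number chosen. A signal of 20 or more was reached by 39 members. The strong peaks within 500 bp of a start, numbering 1618, had a median of 18.1 and a highest value of 1668. The 671 strong peaks in introns away from starts had a median of 16.7 and a highest value of 53.2, and the 575 strong intergenic peaks away from starts a median of 17.2 and a highest value of 129. The coding-exon peaks had the lowest maximum of these classes and were also the fewest. Their quartiles were close to those of the intron peaks, 15.3 and 18.8. Signal chose the peaks, so nothing is read from this. The 5 nearest above the threshold were in H10E21.5 with a signal of 14.59, golg-4 with 14.58, acs-15 with 14.54, Y50D7A.8 with 14.51 and cup-16 with 14.51. The 5 coding-exon peaks nearest below it were in scrm-1, with a signal of 14.499, dhp-1 with 14.48, wht-6 with 14.47, lpr-2 with 14.46 and cest-5.2 with 14.44. All 291 peaks had a width of 344 bp, which is that of nearly the whole list, so width carries no measurement.

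**Figure D1:**
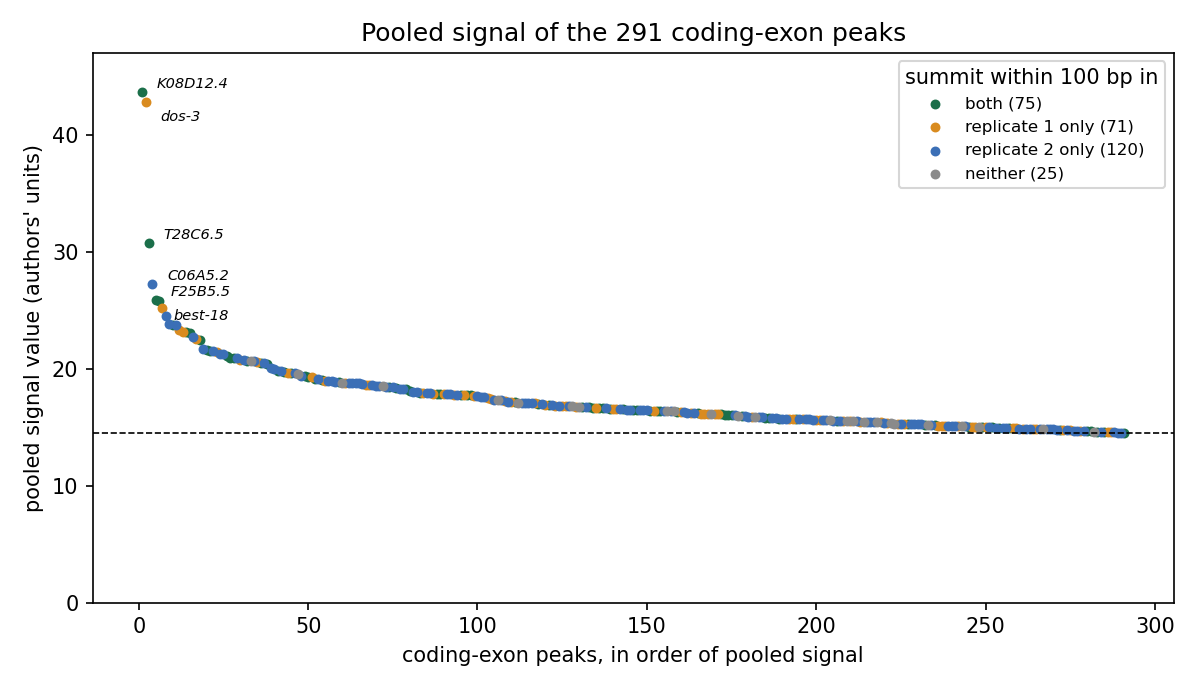
Pooled signal of the 291 coding-exon peaks in order of signal, coloured by the replicate lists that hold a summit within 100 bp, with the signal threshold as a dashed line. The peaks in K08D12.4 and dos-3 stand above 40, T28C6.5 follows at 30.8, and the rest form a slope that flattens towards the threshold with all 4 colours along its lower part.

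The coding-exon peaks were looked for in the list of each replicate, where a peak counted as found if a summit lay within 100 bp. In the replicate 1 list 146 of 291 were found (50.2%, 95% Wilson interval 44.5 to 55.9), against 36.4% of all pooled peaks. In the replicate 2 list 195 were found (67.0%, interval 61.4 to 72.2), against 45.6% of all pooled peaks. Both lists held 75 of them (25.8%, interval 21.1 to 31.1), against 10.7% of all pooled peaks. A further 71 (24.4%) were found in replicate 1 only, against 25.7% of all pooled peaks, and 120 (41.2%) in replicate 2 only, against 34.9%. In neither list were 25 (8.59%), against 28.6% of all pooled peaks. The share found in replicate 1 only was thus near that of all pooled peaks. The share found in replicate 2 only was above it, with an interval of 35.7 to 46.97 that leaves out 34.9%. The shares in both lists and in neither differed more from those of all pooled peaks. The pooled list was made from the same reads as the replicate lists, and the members were chosen on pooled signal, so a share above that of all pooled peaks is partly set by the choice. The intervals cover the counting of peaks only, and with 2 replicates there is no test over samples.

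For the share in both lists, the comparison with other strong peaks goes the other way. Of strong peaks within 500 bp of a start, 697 of 1618 were in both lists (43.1%, interval 40.7 to 45.5), a share whose interval does not overlap that of the coding-exon peaks. The share was 30.0% (interval 26.6 to 33.5) for strong intron peaks, which overlaps that of the coding-exon peaks, and 35.7% (interval 31.8 to 39.7) for strong intergenic peaks, which does not. For the 168 strong peaks away from starts in exons but outside coding sequence it was 33.3%. Their interval, 26.6 to 40.8, also overlaps that of the coding-exon peaks. Of the 2292 coding-exon peaks with a lower signal on the same chromosomes, 114 were in both lists (4.97%, interval 4.16 to 5.94). The strong classes differ in signal, so the shares were also set side by side within ranges of pooled signal that were chosen after values were seen. Below 16, 20 of 115 coding-exon peaks were in both lists (17.4%, interval 11.5 to 25.3), against 22.1% (interval 18.5 to 26.3) of those near starts. Between 16 and 18 the shares were 28.1% of 96 coding-exon peaks (interval 20.1 to 37.8) and 31.9% of 376 near starts (interval 27.4 to 36.8). Between 18 and 20 they were 29.3% of 41 (interval 17.6 to 44.5) and 39.2% of 255 (interval 33.4 to 45.3). Within each of these 3 ranges the intervals overlapped. From 20 to 45 the share was 41.0% of 39 coding-exon peaks (interval 27.1 to 56.6). Near starts it was 60.9% of 443 peaks (interval 56.3 to 65.4). For intron peaks it was 50.9% of 114 (interval 41.8 to 59.9). For intergenic peaks it was 53.3% of 135 (interval 44.9 to 61.5). In that range the intervals of coding-exon peaks and of peaks near starts overlapped by less than 1 percentage point. The range is wide enough for signal to differ within it. The intervals of intron and of intergenic peaks overlapped those of coding-exon peaks within every signal range, unlike the intergenic interval over all signals. Between 16 and 18 the coding-exon share was no lower than those of intron and intergenic peaks. In the other ranges it was lower than both.

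**Figure D2:**
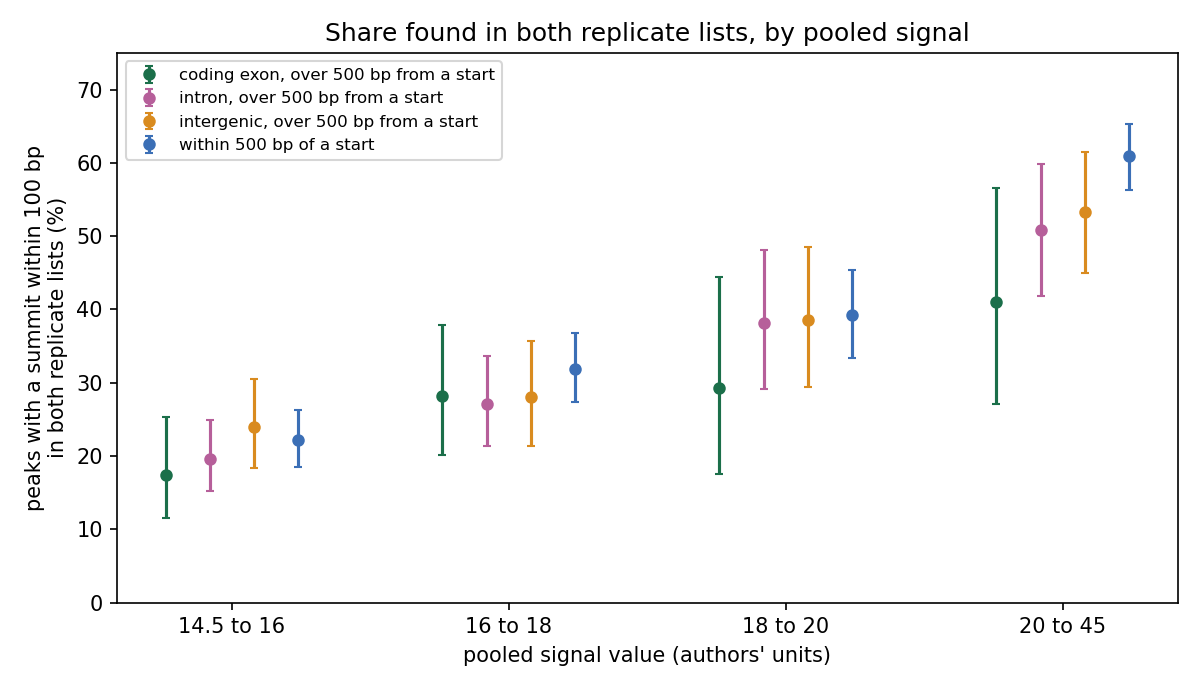
Share of strong peaks with a summit within 100 bp in both replicate lists (percent), by range of pooled signal, for coding-exon, intron and intergenic peaks over 500 bp from a start and for peaks within 500 bp of a start. Points are shares and bars are 95% Wilson intervals; the share grows with signal in each class, and coding-exon peaks run from 17.4% in the lowest range to 41.0% in the highest.

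The place of a peak in the rank order of each replicate was compared next, and ranks are used because the scaling of signal between the lists is not given. Among the 75 coding-exon peaks found in both lists, the rank in replicate 1 ran from 184 to 28817 with a median of 7616. In replicate 2 it ran from 433 to 28908 with a median of 9122. Spearman's rho between these ranks was −0.12 over the 75 peaks, a description only, since the peaks share their 2 libraries and were chosen on the pooled signal of both. Counted over all members found in a list, 76 were among the 4966 strongest of replicate 1 and 99 among the 4966 strongest of replicate 2, 4966 being the number of strong pooled peaks on all chromosomes. Among both were 7 members (2.41%, interval 1.17 to 4.88), against 1.62% of all pooled peaks. For other strong peaks this share was 3.58% in introns (interval 2.42 to 5.27), 8.35% between genes (interval 6.35 to 10.9) and 16.1% within 500 bp of a start (interval 14.4 to 18.003). In exons outside coding sequence it was 7.14% of 168 (interval 4.13 to 12.1). Among the 1000 strongest there were 21 in replicate 1, 33 in replicate 2 and 0 in both, which allows a share of up to 1.03% (3 of 291), against 0.757% of all pooled peaks. At that rank the share in both was 0.447% of strong intron peaks, 2.96% of strong intergenic peaks and 9.33% of strong peaks near starts. At 4966 the interval of the members overlapped those of intron peaks and of peaks in exons outside coding sequence. It did not overlap those of intergenic peaks or of peaks near starts.

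In 7 genes the peak ranked high in both replicates. The peak in K08D12.4 ranked 184 in replicate 1 and 1095 in replicate 2. The peak in T28C6.5 ranked 300 in replicate 1 and 2701 in replicate 2. The peak in lfe-2, which encodes an inositol trisphosphate kinase, ranked 1126 and 2696 in replicates 1 and 2, with a pooled signal of 20.9. These 3, with itx-1 at 1563 and 2249, were the members that ranked 2701 or better in both lists. The itx-1 gene encodes a neurexin-like membrane protein, and its pooled signal here was 17.8. In clec-160, a C-type lectin gene with a pooled signal of 23.7, the ranks were 3235 and 4880. In vrk-1, which encodes a chromatin-associated protein kinase, they were 3990 and 4573, and in F25B5.5 they were 4670 and 2501.

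The list thresholded on the IDR held 2 of the 291 coding-exon peaks (0.687%, interval 0.189 to 2.47), those in K08D12.4 and dos-3. For all pooled peaks the share was 1.01%, for strong peaks within 500 bp of a start it was 12.1%, for strong intergenic peaks 4.52% (interval 3.10 to 6.54) and for strong intron peaks 1.19%. That list consists of the pooled peaks of highest signal, which is the value that chose the members, and the 2 peaks were at ranks 171 and 174 of the pooled list. The dos-3 peak ranked 181 in replicate 1, and the nearest replicate 2 summit was 106 bp away, just outside the distance counted as found. The T28C6.5 peak, at rank 341 of the pooled list, was the next in order and was not in the IDR list.

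When as many of the strongest peaks of each replicate were taken as the IDR list holds, the members among them were different in each. In replicate 1 they were K08D12.4, dos-3 and T28C6.5. In replicate 2 they were exc-7 at rank 194, tag-272 at 199, C06A5.2 at 257, mekk-3 at 267, mppb-1 at 272 and cla-1 at 281. None of these 6 was found in replicate 1. The exc-7 gene encodes an RNA-binding protein of the ELAV family, mppb-1 a subunit of the mitochondrial processing peptidase and cla-1 a protein of the presynaptic active zone. The pooled signals were 27.2 in C06A5.2, 20.5 in exc-7, 18.7 in cla-1, 17.9 in mekk-3, 17.8 in mppb-1 and 14.9 in tag-272, so these 6 ran from near the top of the members to near the threshold.

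Applying the conditions other than signal to the 4966 strongest peaks of each replicate gave 344 coding-exon peaks in replicate 1 and 377 in replicate 2. Summits within 100 bp of each other were found for 3 of them, which is 0.872% of the replicate 1 set and 0.796% of the replicate 2 set. For peaks within 500 bp of a start the number was 251, or 16.1% and 17.7% of the replicate 1 and replicate 2 sets. For intron peaks it was 21 (3.23% and 3.01%), and for intergenic peaks 42 (7.79% and 7.71%). These sets were chosen in each replicate without the pooled list, and the share was lowest for coding-exon peaks among the 4 classes in both lists, a difference that was not tested. Peaks in exons outside coding sequence were not counted in this comparison. The number of matches was the same from either replicate in each class, as it is when both summits must fall in the same class. A partner summit in an adjoining intron would then not be counted for a coding-exon peak, and the size of this effect was not tested. Of the 291 members, 68 were in the replicate 1 set and 88 in the replicate 2 set, and 4 in both.

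Among the 25 coding-exon peaks of highest pooled signal, 10 were found in both lists, 6 in replicate 1 only, 9 in replicate 2 only and 0 in neither. Beside those named above, the peaks found in both were in best-18, gon-2, hecd-1, mus-101, npp-19 and T13F2.6. The gon-2 gene encodes a cation channel of the TRPM family, and its peak, of pooled signal 23.1, ranked 5452 in replicate 1 and 4455 in replicate 2. The mus-101 gene, homologous to TopBP1 of DNA replication and repair, had a pooled signal of 22.5 with ranks of 7967 and 8003. The nucleoporin gene npp-19 had 21.6, and ranked 7194 in replicate 1 and 814 in replicate 2. The best-18 peak ranked 403 and 13759, the hecd-1 peak, of signal 23.0 in a HECT ubiquitin ligase gene, 6685 and 11452, and the T13F2.6 peak, of signal 21.5, 2083 and 7569. In 4 of these 6 the ranks differed by more than 1000 places.

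Those found in replicate 1 only were dos-3, nhr-21 at rank 376, nep-10 at 589, ugt-62 at 990, atg-16.2 at 1717 and srh-99 at 27183. Their genes include a neprilysin-family peptidase (nep-10, signal 23.2), a UDP-glucuronosyltransferase (ugt-62, signal 23.3) and a factor of autophagosome formation (atg-16.2, signal 22.5). Those found in replicate 2 only were C06A5.2, with a signal of 27.2, nrde-1, lin-10, tag-10, cdk-9, dpf-7, coa-6, F21A9.1 and sqv-5. The nrde-1 gene, which acts in nuclear RNA interference, had a signal of 24.5 at rank 624, and lin-10, a PDZ-domain protein of polarised protein sorting, had 23.9 at rank 812. The chondroitin synthase gene sqv-5 had a signal of 21.2 and ranked 490. The remaining ranks in replicate 2 were 1754 for F21A9.1, with a signal of 21.3, 2836 for tag-10 with 23.7, 5556 for cdk-9, the kinase of the elongation factor P-TEFb, with 22.7, 7043 for dpf-7 with 21.7 and 22777 for coa-6 with 21.5.

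The members fell in 280 genes, all protein-coding, among 2129 genes that hosted any pooled peak of this kind whatever its signal. On the chromosomes they numbered 87 on I, 73 on II, 63 on III and 68 on IV, which is 9.97%, 9.55%, 7.80% and 7.74% of the strong peaks there. In 11 genes there were 2 members, and in no gene more. Both members of T12C9.7, with signals of 15.7 and 14.7, were found in both replicate lists. In F54B3.1, nrde-1, itx-1 and Y62E10A.13 1 member was found in both lists and the other was not. The nrde-1 members had signals of 24.5 and 17.96, and the weaker of them was the one found in both lists. In F54D1.6 and pgp-1, an ABC transporter gene, 1 member was found in each replicate only. In Y75B8A.19, ubr-1, which encodes a ubiquitin ligase, and unc-13, a factor of synaptic vesicle priming, both members were found in replicate 2 only. In ech-1.2, 1 member was found in replicate 2 only and the other in neither. The member pairs of ech-1.2 and of Y62E10A.13 overlapped each other, so they are not separate regions.

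Of the 18 groups of genes looked up by fixed symbols, 10 held at least 1 host, with 23 hosts in all. The groups hold only genes whose symbols were listed, so they do not count every host of a kind: vrk-1, mekk-3, wnk-1 and hasp-1, which encode kinases, and tbx-11 and daf-16, which encode transcription factors, were hosts outside them, and were named after their values were seen. Genes listed as chemoreceptors by symbol gave 6 hosts of the 40 with any such peak (sra-32, srdh-1, sre-48, srh-282, srh-99 and srw-9), the largest number. That is 2.14% of the 280 hosts against 1.88% of the 2129. The match was by the letters of the symbol only, and srdh-1 may not be a chemoreceptor gene. Nothing is therefore read from 2.14% being above 1.88%. Of the 6, only sre-48 was found in both replicate lists, with a signal of 19.6 and ranks of 4360 and 16344. The listed transcription factor genes gave 4 of 34, which were ceh-38, ceh-82, nhr-21 and nhr-31, or 1.43% against 1.60%. None of these 4 was found in both lists. Vesicle traffic gave 3 of 19 (apb-3, sec-16A.1 and sec-24.1), chromatin 2 of 21 (met-2, an H3K9 methyltransferase, and set-16, an MLL-type methyltransferase), the listed kinases 2 of 11 (cdk-9 and plk-1) and translation factors 2 of 7 (eef-1A.1 and eef-2). Single hosts were dars-1 of 9 aminoacyl-tRNA synthetases, tba-2 of 4 tubulins and actins, and prp-18 of 4 splicing genes. Another was vit-6, the only vitellogenin with any such peak on chromosomes I to IV. Genes on other chromosomes could not be hosts, so nothing is said of other vitellogenins. There were 0 hosts among the 11 cuticle collagens, 8 muscle structure genes, 6 chaperones, 4 respiratory chain genes, 3 proteasome genes and 3 RNA polymerase genes that had any such peak. No ribosomal protein or histone gene had one. A short gene can hardly hold a summit more than 500 bp from every start, so nothing is read from this. With numbers this small no group was set apart from the background.

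Of the listed hosts, those found in both replicate lists were eef-1A.1, eef-2, tba-2, dars-1, vit-6 and sre-48. The eef-2 peak, in the gene of the ribosomal translocase, had a signal of 19.3 and ranks of 658 in replicate 1 and 25638 in replicate 2. The eef-1A.1 peak, in the gene of the factor that delivers aminoacyl-tRNA, had a signal of 17.8 and ranks of 3085 and 24516. The peak in the alpha-tubulin gene tba-2 had a signal of 15.3 and ranks of 17097 and 14241. The yolk protein gene vit-6 had a signal of 16.5 and ranks of 3866 and 7525, and dars-1 had 16.6 with ranks of 28817 and 22411. None of these 5 was high in both lists.

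A strong peak within 500 bp of one of its own 5′ ends was present in 54 of the 280 host genes (19.3%, interval 15.1 to 24.3), against 13.7% of the 2129 genes with any coding-exon peak of this kind. The signal at the start ran from 14.6 to 1016 with a median of 18.4, and in 39 of the 54 it exceeded that of the member. The highest start signals were 1016 at tba-2, 849 at eef-1A.1 and 810 at eef-2, against member signals of 15.3, 17.8 and 19.3 in the same genes. In these 3 genes the coding-exon summits lay 593, 1002 and 1988 bp from the nearest annotated 5′ end. The next were 119 at set-16, 55.8 at ceh-38 and 53.1 at npp-14. In those 6 genes the coding-exon peak had a lower signal than the start. Outside the 54, no host had a strong peak at a start, and among the 25 members of highest signal only gon-2 had one, with a start signal of 18.5.

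Along the host gene, measured from its 5′ end at 0% to its 3′ end at 100%, the members had a median position of 67.8%, against 63.8% for weaker coding-exon peaks. In 5 stretches of 20% of the gene from 5′ to 3′ there were 24, 40, 53, 87 and 87 members, or 8.25%, 13.7%, 18.2%, 29.9% and 29.9%. For weaker coding-exon peaks the shares were 6.76%, 17.4%, 21.03%, 28.4% and 26.4%. The low numbers in the first stretches are in part set by the condition that summits lie more than 500 bp from a start, which the weaker peaks share. Measured along the coding sequence instead, the medians were 65.4% and 60.6%. The summit lay between 505 and 8970 bp from the nearest annotated 5′ end, with a median of 1381 bp. More than 2000 bp from it lay 86 members (29.6%), against 30.0% of weaker coding-exon peaks. That nearest 5′ end belonged to the host in 190 members (65.3%, interval 59.7 to 70.5) and to another gene in the rest. It belonged to the host in 58.7% of weaker coding-exon peaks, a difference that was not tested. The member most distant from any 5′ end was in dig-1, a giant extracellular matrix gene of 48457 bp, which is the longest host.

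**Figure D3:**
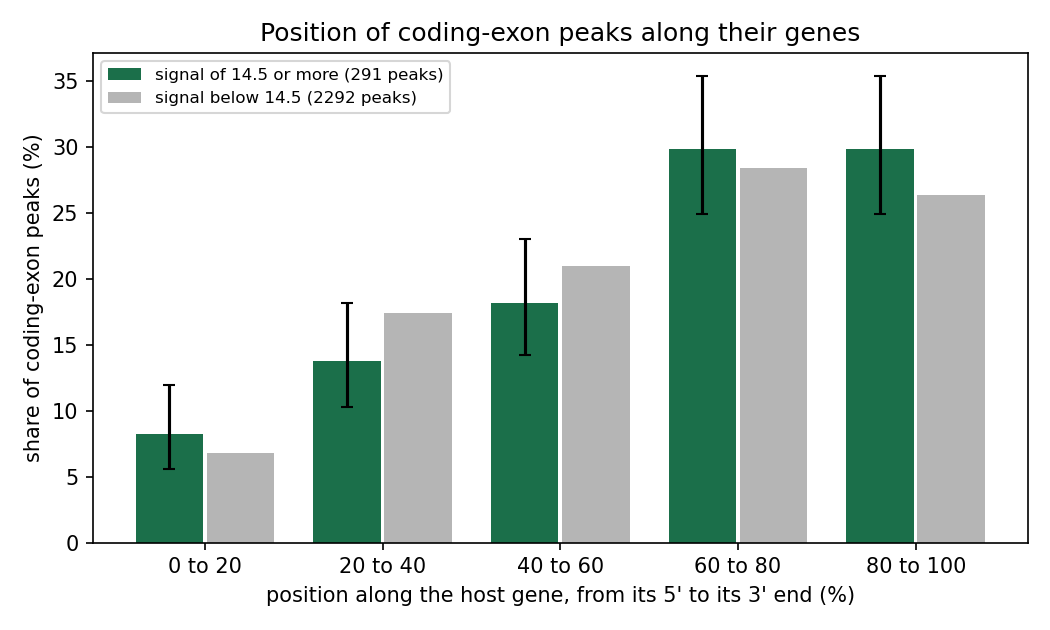
Share of coding-exon peaks (percent) in each 20% of the host gene, from its 5′ to its 3′ end, for the 291 members and the 2292 weaker peaks; error bars on members are 95% Wilson intervals. The last 2 stretches hold 29.9% of members each, against 28.4% and 26.4% of weaker peaks.

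The members of highest signal had the largest share near the end of their genes. Of the 39 members with a signal of 20 or more, 18 lay in the last 20% of the gene (46.2%, interval 31.6 to 61.4). The share was 36.6% of 41 between 18 and 20 (interval 23.6 to 51.9), 21.9% of 96 between 16 and 18 (interval 14.8 to 31.1) and 28.7% of 115 below 16 (interval 21.2 to 37.5). Among the weaker coding-exon peaks it was 29.03% of 372 from 12 up to the threshold, 25.2% of 604 between 10 and 12 and 26.2% of 1316 below 10. The interval of the highest range overlapped those of the range below 16 and of that from 18 to 20, and not that of the range from 16 to 18. A summit within 500 bp of the host's 3′ end was found for 15 of the 39 (38.5%, interval 24.9 to 54.1) and 71 of all 291 (24.4%, interval 19.8 to 29.6), against 20.03% of weaker peaks. Among the 25 of highest signal 12 lay in the last 20%, and the same number had the host's 3′ end within 500 bp. The signal ranges were chosen after values were seen, and no test was made of this pattern.

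Most members lay in internal coding exons, 221 of them (75.9%), with 66 in the last coding exon (22.7%, interval 18.2 to 27.8) and 4 in the first. For weaker coding-exon peaks the shares were 81.1% internal and 18.1% last. The exon at the summit had a median length of 244 bp, against 272 bp for weaker peaks, and ran from 23 bp in tag-10 to 2485 bp in cla-1. Since the exon is often shorter than the window, coding bases made up a median of 76.6% of the window of 100 bp to either side of a member's summit. Wholly coding were 78 windows (26.8%), against 30.5% of those of weaker peaks. At 6 summits (2.06%) the base also lay within a second protein-coding gene on the opposite strand. Among weaker peaks 2.62% of summits lay within a second gene of any kind. The host and overlapping genes of the 6 were C06A5.2 with C06A5.12, tag-10 with phdh-1, toe-4 with vps-25, clec-178 with skn-1, mab-31 with cogc-1 and cup-16 with srg-15.

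Other strong peaks were seldom close. The nearest other strong summit lay at a median of 5231 bp, against 6022 bp for weaker coding-exon peaks, and 27 members (9.28%) had one within 1000 bp, against 7.98%.

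The GC content of these windows had a median of 38.8% in members, with quartiles of 35.8% and 43.3% and a range of 22.9% to 62.2%. The weaker coding-exon peaks had a median of 39.8%. The other strong classes had lower medians, of 31.8% in introns, 34.3% in intergenic stretches and 36.6% within 500 bp of a start. A coding place was a condition of the choice, so the difference from introns is not a finding about these peaks. Set against the whole coding sequence of their own host, member windows differed by a median of −3.34 percentage points, and 71 of 291 (24.4%) were higher. For weaker coding-exon peaks the median difference was −2.85 percentage points, and 24.2% were higher. In the 78 member windows that were wholly coding, the median was 43.03% against a host median of 42.6%, and 44 of them (56.4%) were above their host. Among wholly coding windows of weaker peaks 45.4% were above their host. The lowest value was at cup-16 and the highest, 62.2%, at phdh-1. Among the 39 of highest signal the median was 36.8%.

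**Figure D4:**
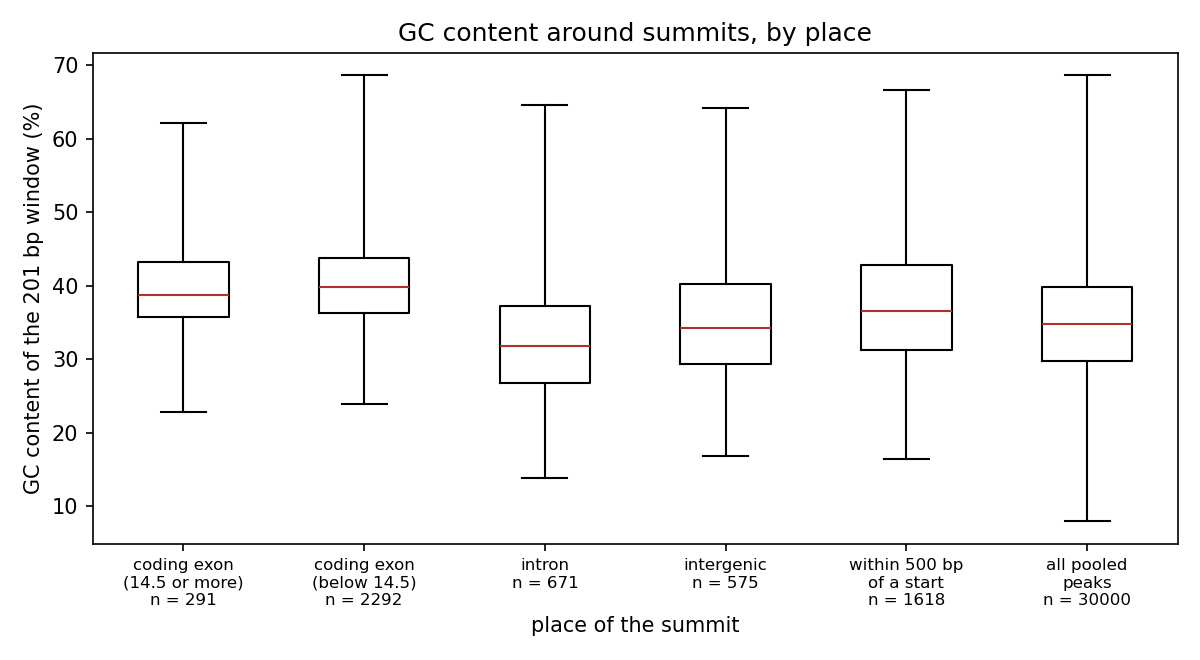
GC content (percent) of windows reaching 100 bp to either side of summits for the 291 coding-exon peaks, the 2292 weaker ones, strong peaks in introns, between genes and within 500 bp of a start, and all 30000 pooled peaks. Boxes give quartiles with the median in red and whiskers the full range; medians run from 38.8% for coding-exon peaks and 39.8% for weaker ones to 31.8% for intron peaks.

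Short sequence words that earlier results of these data gave for the reproducible peaks, most of which lie near starts, were counted on both strands of the windows. TGCGTCTC was in 0 of 291 member windows, which allows a share of up to 1.03% (3 of 291), against 0.480% of weaker coding-exon peaks, 5.25% of strong peaks within 500 bp of a start and 1.73% of all pooled peaks. GCGCAC was in 5 (1.72%), against 1.31% of weaker coding-exon peaks and 9.39% near starts. GAGCGC was in 4 (1.37%), against 2.05% and 8.65%, and AGCGCG in 1 (0.344%), against 1.31% and 7.60%. These 2 words share the letters AGCGC, so their counts are not separate. ACGCAG was in 13 (4.47%), against 3.71% of weaker coding-exon peaks and 11.6% near starts, and ACCGTA in 12 (4.12%), against 6.33% and 8.96%. The words were taken from peaks that mostly lie near starts, so their higher shares there are largely set by how they were chosen and nothing is read from them. Against weaker coding-exon peaks, members had a higher share for GCGCAC and ACGCAG and a lower one for the other 4. All 6 words contain CG, the windows differ in base composition, and these differences were not tested.

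Repeated sequence touched few members. At least 1 stretch of 36 bp with another copy in the genome lay in 4 of the 291 windows (1.37%), against 1.44% of weaker coding-exon peaks, 6.12% of strong peaks near starts and 6.81% of all pooled peaks. The 4 were in ddx-23, where 25.9% of the stretches were repeated, eef-1A.1 and golg-4 with 15.1% each, and Y71G10AR.4 with 1.81%. Whether reads there could be placed to 1 copy depends on the read length, for which there is no value here, so the peaks in these 4 genes are uncertain. The eef-1A.1 gene has a near-identical paralogue. None of the 6 peaks whose sequence is printed above was among them.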

How the data were processed

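ChIP-seq of tagged ZK546.5 was done in 2 samples of 1 group. The ce11 lists of each replicate, of both pooled and of peaks thresholded on the IDR were used. Per the submitters' deposited text files, each replicate list was made by the authors from the alignments of that replicate and a control file, and the pooled list from both replicates. The signal value per peak is the deposited value of the authors. Not given in the sources used here are the scaling of this value between lists, the aligner and the peak caller. The control reads and the ce10 lists were not analysed here. Read numbers are not part of the lists, so depth was unknown, and the number of peaks limits the precision of each share. No library was set apart as doubtful, and the replicate 1 list held 25 mitochondrial peaks.

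Summits were taken as start plus the last column and placed with the WBcel235 genome, which is the ce11 build, and Ensembl gene annotation release 115. Coordinates are 1-based. A base in any coding sequence counted as coding, whatever other feature lay there. The scripts used Python 3.11.15, numpy 2.4.6, pandas 2.3.3 and scipy 1.17.1, and their functions were tested on simulated data. A peak was found in a list if a summit lay within 100 bp. GC content, words and repeated stretches of 36 bp were read from 201 bp windows centred on the summit. Peaks with a signal of 14.5 or more are called strong. Shares have 95% Wilson intervals, and a count of 0 has the limit that 3 counts would give. No p-value was computed, because there is 1 group and the peaks were chosen on their signal.

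The members, gene lists and words were chosen with earlier results of these data known. Named genes are the 25 members of highest signal, those in the IDR list or among the 304 strongest of a replicate, hosts of 2 members, hosts in a list and the 5 peaks on each side of the threshold. The members strong in both replicates, and genes named for an extreme value, were chosen after their values were seen. Alternatives changed the signal and start distance limits, the matching distance, the window and the replicate used.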

Additional observations from a re-analysis of the deposited data

How the results depend on the processing

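The number of coding-exon peaks was set by the signal limit, with 1267 at 10 or more and 39 at 20 or more. It was 291 as reported, and moved less with a start distance of 250 bp (374) or 1000 bp (205) and with starts of protein-coding genes only (320). It was between 344 and 377 when the 4966 strongest peaks of a single replicate were taken in place of the signal limit. The number of peaks taken was thus fixed beforehand. The share found in both replicate lists, 25.8%, was 13.1% with summits within 50 bp, 41.9% within 200 bp and 37.5% with an overlap of at least 50% of the pooled peak. It was 12.6% for a signal of 10 or more and 41.0% for 20 or more, and 50.2% to 67.0% when only the list of the other replicate had to hold the peak. At 50 and 200 bp the share stayed below that of strong peaks near starts, which was 27.5% and 59.3%. The share in the IDR list was 0.158% at 10 or more and 5.13% at 20 or more. The median GC content was 40.6% in windows of 50 bp to either side and 36.8% at a signal of 20 or more, and 38.8% to 40.3% in the sets of single replicates. The median position along the gene was 71.0% beyond 1000 bp from a start and 78.3% at a signal of 20 or more, and 64.1% to 65.9% in the sets of single replicates. The cause of these shifts was not tested. No paired analysis was possible because there is 1 group, with no second group to pair its replicates with. The limits are 2 replicates, an unknown depth, list lengths fixed at 30000 and annotated 5′ ends that need not be true starts.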
